A study of Rattus norvegicus with 24 samples.

Results

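The 10 genes followed here in the nucleus accumbens are used to tell apart the medium spiny neurons of the direct and the indirect pathway. The 5 direct pathway genes were Isl1, Chrm4, Ebf1, Eya1 and Slc35d3, and the 5 indirect pathway genes were Adora2a, Gpr6, Gpr52, Sp9 and Upb1. They were taken by gene symbol as known markers, with no threshold on their values, and all 10 were found among the 68842 transcript clusters of the Affymetrix Rat Transcriptome Array 1.0. A transcript cluster is the set of probes that the array assigns to 1 gene. Ebf1 alone had 2 clusters, and the one with the higher mean over the 24 arrays was used.

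Male Sprague-Dawley rats self-administered methamphetamine (METH) or saline, and the presses of METH rats were later punished with footshocks. The shock-resistant group (SR, 6 arrays) went on taking METH and the shock-sensitive group (SS, 6 arrays) cut its intake, and these rats were sorted afterwards and not assigned. Rats of the YSR and YSS groups (3 arrays each) received saline with shocks that followed those of SR or SS partners, whatever they did themselves, and the control group (CT, 6 arrays) received saline. Tissue was taken 1 day after the last cue test, at about a month of withdrawal. In SRvsCT and SSvsCT the drug and the shocks cannot be told apart. Whether CT rats also took the cue tests is not stated outright. If they did not, the recent test cannot be told apart from the drug and the shocks either. In SRvsSS traits present before the drug cannot be told apart from what followed. A mark of unknown meaning stands in the labels of every array except the yoked ones. If it stands for a batch, batch and group cannot be told apart where a yoked group is compared with another.

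Nearly all neurons of the striatum are GABAergic medium spiny neurons. Those of the direct pathway carry the dopamine receptor Drd1, project to the midbrain and promote action, while those of the indirect pathway carry Drd2, project mainly to the pallidum and restrain it. In the nucleus accumbens the split is less sharp than in the dorsal striatum, since Drd1 neurons there also reach the ventral pallidum. In bulk tissue such as this, fewer cells of a type and less RNA per cell cannot be told apart.

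The main result was that the 10 genes did not separate the 5 groups, while most of them differed widely from rat to rat and moved up and down together whichever pathway they mark. No gene of the 10 was called at an adjusted p under 0.05 (limma, Benjamini-Hochberg over all clusters) in any of the 8 pairwise comparisons, where 0.338% of all clusters were called in SRvsCT, 0.00145% in SSvsCT and 0% in the other 6. The smallest values of p were those of Chrm4 in SRvsCT, Eya1 in SRvsYSR and Isl1 in SRvsSS. Of the 45 pairs that the 10 genes form, 31 had a correlation between rats of a group that passed a permutation test, and 17 of these pairs joined a direct with an indirect pathway gene. The share that would pass among other pairs of clusters was not computed. Of 3582 other genes above the study's signal filter, 10.8% had a correlation over 0.8 with the indirect pathway mean and 5.61% with the direct.

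Upstream sequence is shown for the genes of the tightest correlated group that held a match to the strings searched, or that can be set beside them. RefSeq promoter windows of the assembly GRCr8 were matched by symbol for 8 of the 10 genes, and Eya1 and Adora2a had no entry. The 250 bases before the gene start are printed 5′ to 3′ on the gene's strand for Gpr6 (chr20:46075252-46075501, minus strand), Slc35d3 (chr1:16392781-16393030, minus strand) and Gpr52 (chr13:75338408-75338657, minus strand). Capitals mark TGACG, the core of the cAMP response element, and CCAAT, the CCAAT box, on either strand, so that CGTCA and ATTGG stand for matches on the opposite strand.
Gpr6: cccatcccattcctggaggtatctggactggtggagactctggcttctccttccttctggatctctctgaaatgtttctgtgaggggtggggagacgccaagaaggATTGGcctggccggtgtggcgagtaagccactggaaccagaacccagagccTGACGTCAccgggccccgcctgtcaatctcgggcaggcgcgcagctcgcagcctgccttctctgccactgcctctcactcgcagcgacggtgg
Slc35d3: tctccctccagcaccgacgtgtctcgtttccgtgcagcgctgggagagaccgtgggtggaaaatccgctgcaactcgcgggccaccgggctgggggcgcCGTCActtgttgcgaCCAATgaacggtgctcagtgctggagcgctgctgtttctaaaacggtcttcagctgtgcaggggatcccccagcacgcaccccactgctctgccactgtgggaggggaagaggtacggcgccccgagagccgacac
Gpr52: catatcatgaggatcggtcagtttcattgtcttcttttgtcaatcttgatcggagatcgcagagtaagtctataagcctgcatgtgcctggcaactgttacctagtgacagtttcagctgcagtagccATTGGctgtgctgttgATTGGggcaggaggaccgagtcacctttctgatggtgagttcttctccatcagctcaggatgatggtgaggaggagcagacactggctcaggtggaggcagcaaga
The full cAMP response element TGACGTCA, which factors activated through cyclic AMP bind, lay in the window of Gpr6 and of no other gene of the 8, and was in 1.59% of 33469 windows of the same length. Its core TGACG was in Gpr6 and Slc35d3 and in 18.2% of all windows, and because TGACGTCA reads the same on both strands it gives 2 overlapping matches of the core in Gpr6. CCAAT was in 7 of the 8 windows, all but that of Ebf1, against 34.0% of all windows. The GC box GGGCGG was in Chrm4 only (30.5% of all windows). The TATA box TATAAA (12.9%), the homeodomain core TAATTG (7.31%) and the palindromic EBF site (0.738%) were in 0 of the 8. Both strands were searched for each string. These matches describe letters in a window and were not tested as sites.

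The array measured the 10 genes with unequal certainty. Adora2a, an adenosine receptor that raises cyclic AMP in indirect pathway neurons, lay above the 95th percentile of the array's own negative controls on 23 of 24 arrays. That percentile ran from 9.63 to 10.32 on the log2 scale. Gpr52, an orphan receptor coupled to cyclic AMP, exceeded it on 6 of 24 arrays, and the other 8 genes on 0. Only Adora2a and Gpr52 also passed the study's signal filter, a CT mean above that of the bioB spike-in (9.45), which 9044 of the 68842 clusters passed. Upb1, an enzyme of pyrimidine breakdown, was below the median of the negative controls on 24 of 24 arrays. Sp9, a transcription factor needed for indirect pathway neurons in the mouse, was above that median on 22 arrays, and the other 8 genes on all 24. The negative controls are single control rows and the genes are summaries of many probes, so these shares only rank how far a signal stood from background. Differences are therefore given on the log2 scale and not as folds.

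Chrm4, the muscarinic receptor M4 that opposes cyclic AMP signals in direct pathway neurons, had its highest group mean in CT and its lowest in SR. Its log2 signal ran from 7.03 to 7.37 with a median of 7.19 in CT, from 6.65 to 7.40 with a median of 6.79 in SR, and from 6.74 to 7.25 with a median of 6.99 in SS. It was 6.92, 6.98 and 7.37 in YSR and 7.22, 7.0 and 7.23 in YSS. Of 6 SR arrays, 4 lay below every CT array, and 1, SR replicate 1, lay above every CT array, so the groups overlapped. The log2 difference in SRvsCT was -0.29 (95% interval -0.53 to -0.06, unadjusted p = 0.0178, adjusted p = 0.184, limma), and Chrm4 was the only gene of the 10 with an unadjusted p under 0.05 there. At that threshold 13.0% of all clusters were lower in SR than in CT and 5.72% were higher, so 1 lower gene in 10 is near the background. With equal array medians these shares became 3.89% and 12.9%, and the difference of Chrm4 became -0.18 (adjusted p = 0.444). In SSvsCT the difference was -0.21 (95% interval -0.44 to 0.03, adjusted p = 0.626), with 4 of 6 SS arrays below every CT array. In SRvsSS it was -0.08 (95% interval -0.32 to 0.15, adjusted p = 0.897).

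The adjusted result for Chrm4 turned on 1 array. Without SR replicate 1, the array with the highest Chrm4 signal of its group, the difference was -0.39 and the adjusted p 0.0475. Without that array, however, 1273 clusters (1.85%) were called in SRvsCT, against 233 (0.338%) with all arrays. Without SR replicate 3 the difference was -0.24 (adjusted p = 0.333), and its unadjusted p was above 0.05.

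Isl1, a homeodomain factor that sets up direct pathway neurons and is also made by the cholinergic interneurons of the striatum, had a higher mean in SR than in any other group. It ran from 7.94 to 8.65 with a median of 8.42 in SR, from 8.04 to 8.34 with a median of 8.17 in CT, and from 7.88 to 8.23 with a median of 8.19 in SS. It was 8.34, 8.18 and 7.91 in YSR and 8.16, 8.15 and 8.15 in YSS. Of 6 SR arrays, 4 lay above every SS array and the same number above every CT array, while SR replicate 3 lay below every CT array. The log2 difference in SRvsSS was 0.21 (95% interval 0.01 to 0.42, unadjusted p = 0.0416, adjusted p = 0.718, limma). In SRvsSS 2.45% of all clusters were higher and 4.44% lower at that p, and 0 clusters (0%) were called after adjustment. In SRvsCT the difference was 0.17 (95% interval -0.03 to 0.38, adjusted p = 0.343), and in SRvsYSR it was 0.21 (95% interval -0.04 to 0.46, adjusted p = 0.935). SS replicate 4, at 7.88, stood apart from its group, and without it the SRvsSS difference was 0.16 (adjusted p = 0.905). The unadjusted p rose above 0.05 without that array, without SR replicate 1, 2, 5 or 6 or SS replicate 5, with array weights (difference 0.13) and with only SR and SS in the fit. In SRvsCT, by contrast, it fell below 0.05 without SR replicate 3 (difference 0.25, adjusted p = 0.208) and with equal array medians (difference 0.28, adjusted p = 0.188).

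Eya1, a coactivator and phosphatase of the eyes absent family, had its lowest mean in SR and its highest means in the yoked groups. Its log2 signal ran from 6.80 to 7.53 with a median of 7.36 in SR, from 6.62 to 7.83 with a median of 7.59 in CT, and from 7.12 to 7.70 with a median of 7.64 in SS. It was 7.90, 7.82 and 7.64 in YSR and 7.94, 7.61 and 7.96 in YSS. All 6 SR arrays lay below all 3 YSR arrays, and 1.47% of all clusters did the same. The log2 difference in SRvsYSR was -0.49 (95% interval -0.93 to -0.06, unadjusted p = 0.0265, adjusted p = 0.935, limma), where 3.15% of all clusters were lower at that p and 0% were called after adjustment. The unadjusted p rose above 0.05 without SR replicate 6 (difference -0.40), YSR replicate 1 (-0.44) or YSR replicate 2 (-0.48). In YSSvsCT the difference was 0.37 (95% interval -0.06 to 0.81, adjusted p = 0.9999) and in SSvsYSS -0.34 (95% interval -0.77 to 0.09, adjusted p = 0.972). CT replicate 4 had the lowest Eya1 signal of all arrays, and without it the SRvsCT difference was -0.34 (adjusted p = 0.195) in place of -0.17 (adjusted p = 0.599), that of YSSvsCT 0.21 and that of YSRvsCT 0.16 in place of 0.33. Eya1 also had the lowest p of the 10 genes in the F test over all 5 groups (F = 2.43, adjusted p = 0.591), a test that called 0 of 68842 clusters (0%) after adjustment and 9.19% at an unadjusted p under 0.05.

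**Figure D1:**
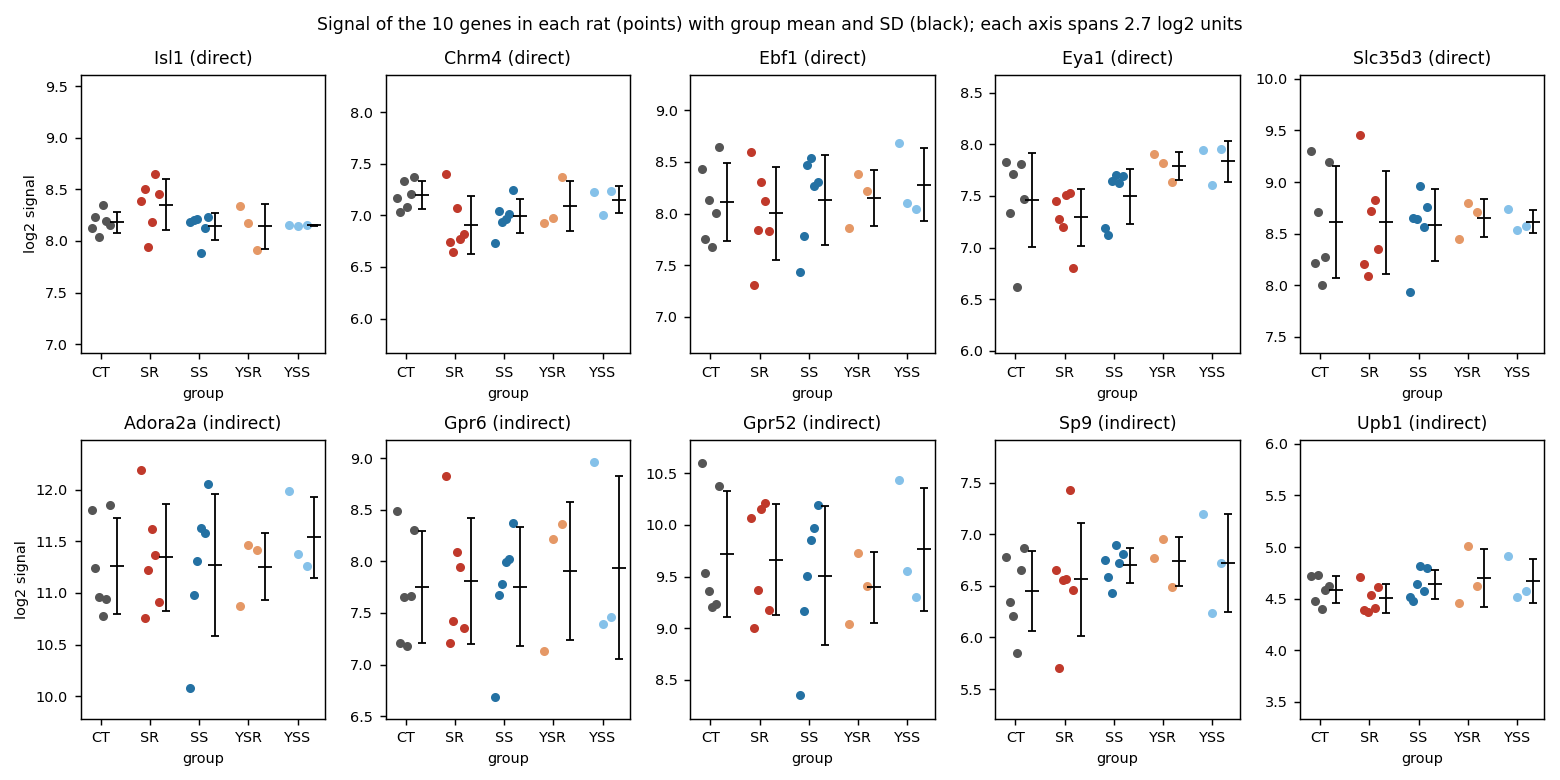
The log2 signal of each of the 10 genes (vertical axis, the same span of 2.7 log2 units in each panel) in each rat (points) of the 5 groups, with the group mean and SD in black (6 rats each for CT, SR and SS and 3 for each yoked group). The groups overlap in nearly every panel, and the points of Adora2a, Gpr6 and Gpr52 are spread far more widely than those of Isl1, Chrm4 and Upb1.

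For the remaining direct pathway genes, Ebf1 and Slc35d3, no comparison had an unadjusted p under 0.05. Ebf1, a transcription factor that guides the maturation of direct pathway neurons in the mouse, had group means from 8.0 ± 0.45 (SD, n = 6) in SR to 8.28 ± 0.36 (n = 3) in YSS. Its difference in SRvsCT was -0.11 (95% interval -0.55 to 0.34, adjusted p = 0.806). Slc35d3, an orphan nucleotide sugar transporter that is needed in the mouse to bring the D1 receptor to the cell surface, had group means that lay within 0.07 of each other, from 8.59 ± 0.35 (n = 6) in SS to 8.65 ± 0.18 (n = 3) in YSR. Its difference in SRvsCT was -0.01 (95% interval -0.48 to 0.46). The widths of these intervals leave room for differences larger than those seen for Chrm4 and Isl1.

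The indirect pathway genes gave no difference with an unadjusted p under 0.05 in any comparison, and their lowest p was that of Upb1 in SRvsYSR (-0.20, 95% interval -0.44 to 0.05, adjusted p = 0.942). Adora2a, the best measured gene, ran from 10.78 to 11.86 with a median of 11.10 in CT, from 10.75 to 12.19 with a median of 11.29 in SR, and from 10.08 to 12.06 with a median of 11.45 in SS. It was 10.88, 11.46 and 11.42 in YSR and 11.99, 11.37 and 11.26 in YSS. The groups overlapped almost completely. The difference was 0.08 in SRvsCT (95% interval -0.50 to 0.66), 0.01 in SSvsCT (95% interval -0.57 to 0.59) and 0.07 in SRvsSS (95% interval -0.51 to 0.65). On Gpr52 the differences were -0.05 (95% interval -0.69 to 0.59), -0.21 (95% interval -0.85 to 0.43) and 0.16 (95% interval -0.48 to 0.80) in the same order. Gpr6, an orphan receptor with constitutive cyclic AMP signalling, had group means from 7.75 ± 0.54 (n = 6) in CT to 7.94 ± 0.89 (n = 3) in YSS. Sp9 had its lowest mean in CT, at 6.45 ± 0.39 (n = 6), and its highest in YSR, at 6.74 ± 0.24 (n = 3), with a difference of 0.25 in SSvsCT (95% interval -0.19 to 0.69, adjusted p = 0.765). Upb1 lay next to Adora2a on chromosome 20, on the same strand and 71526 bases away in the coordinates of the files, for which no source here names a build.

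Whatever the order of its group means, no gene of the 10 differed at an adjusted p under 0.05 between groups in the 8 comparisons run. The group means of a gene differed by at most 0.54 (Eya1). The study's criterion, an unadjusted p under 0.05 with 1.7-fold, was applied to genes above its signal filter, which only Adora2a and Gpr52 passed. Here the same criterion was used with the limma p and no filter, and none of the 10 genes reached it. It was met by 0.224% of all clusters in SRvsCT, 0.0712% in SSvsCT, 0.167% in SRvsSS, 0.0639% in YSRvsCT, 0.0959% in YSSvsCT, 0.0741% in YSRvsYSS, 0.177% in SRvsYSR and 0.128% in SSvsYSS. The differences of SR from YSR and of SS from YSS did not differ for any gene at an adjusted p under 0.05, with 0% of all clusters called, and the smallest p of this test was that of Isl1 (0.22, 95% interval -0.13 to 0.58). SSvsCT, YSRvsCT, YSSvsCT, YSRvsYSS and SSvsYSS held 0 of the 10 genes at an unadjusted p under 0.05, where 8.71% of all clusters passed in SSvsCT, 4.88% in YSRvsCT, 4.57% in YSSvsCT, 2.75% in YSRvsYSS and 5.43% in SSvsYSS. After adjustment 1 cluster (0.00145%) was called in SSvsCT and none in the other 4 (0%).

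**Figure D2:**
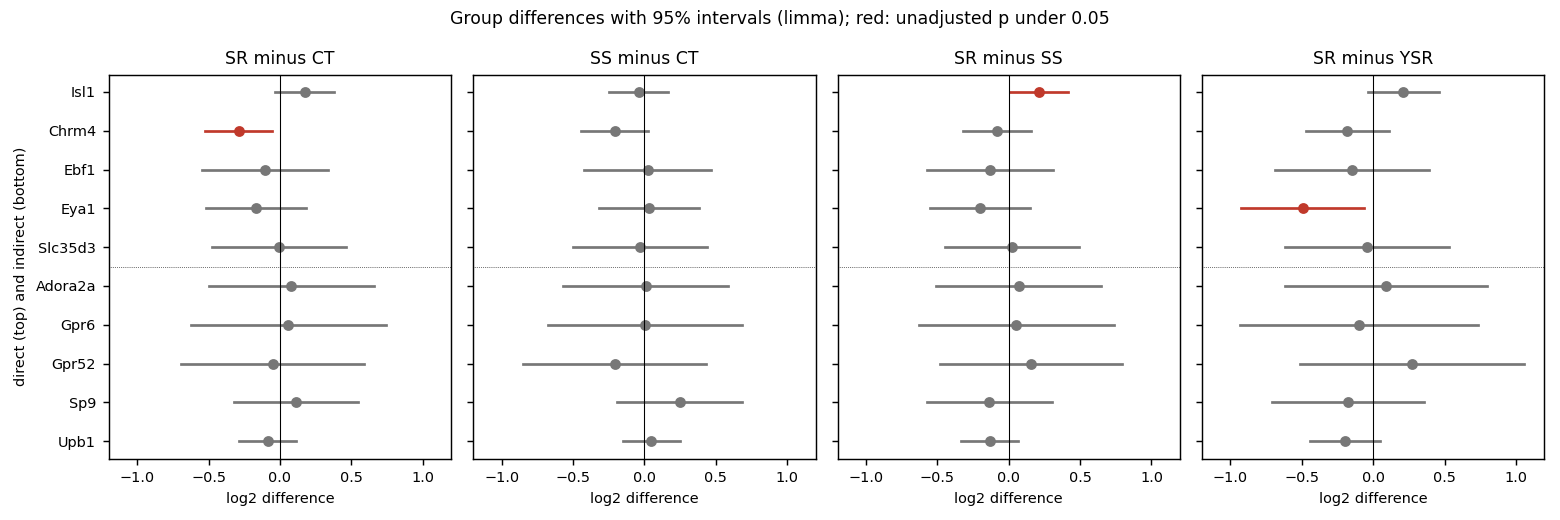
Log2 differences (horizontal axis) with 95% intervals from limma for the 10 genes in SRvsCT, SSvsCT, SRvsSS and SRvsYSR, with direct pathway genes above the dotted line. Red marks the 3 differences with an unadjusted p under 0.05, which are Chrm4 in SRvsCT, Isl1 in SRvsSS and Eya1 in SRvsYSR, and the intervals of the indirect pathway genes all cross 0.

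As a description of balance between the pathways, the log2 signals of the 5 genes of each pathway were averaged in each rat after subtracting each gene's CT mean. Among METH rats the direct pathway mean was -0.08 ± 0.28 (SD, n = 6) for SR and -0.05 ± 0.21 (n = 6) for SS, and among yoked rats it was 0.05 ± 0.07 (n = 3) for YSR and 0.09 ± 0.14 (n = 3) for YSS. The indirect pathway mean was 0.02 ± 0.41 for SR, 0.02 ± 0.42 for SS, 0.04 ± 0.31 for YSR and 0.17 ± 0.50 for YSS, and that of YSS became -0.11 without YSS replicate 1. Each mean was smaller than the SD of its group. The direct minus the indirect mean was -0.10 ± 0.19 (n = 6) in SR and -0.07 ± 0.23 (n = 6) in SS, and the individual CT rats ran from -0.26 to 0.24. In SSvsYSS all 10 genes had a difference below 0, where 48.6% of all clusters were above 0, but without YSS replicate 1 the count was 4 of 10. That array had the highest indirect pathway mean of the 24, at 0.75.

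The larger signal in these genes lay between rats of the same group. The SD within groups was at the 99.3rd percentile of all clusters for Gpr6, the 99.1st for Gpr52 and the 98.5th for Adora2a. It was at the 96.5th percentile for Slc35d3, the 95.5th for Ebf1, the 95.3rd for Sp9 and the 88.8th for Eya1. Chrm4 (52.2), Upb1 (33.2) and Isl1 (35.0) varied no more than a middling cluster. Only 9044 of the 68842 clusters ranked here passed the study's signal filter, and no rank among those alone was computed. Over the 24 arrays Gpr6 spanned 2.27 log2 units and Isl1 0.77.

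These differences between rats ran together. Group means were removed from each gene, and Pearson's r and Spearman's rho over 24 arrays were tested by 100000 permutations within groups, with p-values adjusted over the 45 pairs. By r, 31 pairs passed at an adjusted p under 0.05, all of them positive, and 30 passed by both r and rho. The test asks only whether the genes of a pair vary independently within groups. How many other pairs of clusters would pass was not computed. Among indirect pathway genes 9 of 10 pairs passed, among direct pathway genes 5 of 10, and across the pathways 17 of 25. Of the 31 pairs, 6 held Upb1, whose signal was below the median of the negative controls on 24 of 24 arrays. The median r was 0.60 among indirect, 0.44 among direct and 0.51 across pathways. The strongest pair was Adora2a with Gpr52 (r = 0.93, rho = 0.94, adjusted permutation p = 6.43e-05 for each). Adora2a with Gpr6 had r = 0.90 and rho = 0.91, also with an adjusted permutation p of 6.43e-05, and Ebf1 correlated with Adora2a and with Gpr6 at r = 0.89 for each and with Slc35d3 at r = 0.85. The unadjusted permutation p of these pairs was 1e-05, the smallest that 100000 permutations can give.

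A group of 5 genes, the direct pathway genes Ebf1 and Slc35d3 and the indirect pathway genes Adora2a, Gpr6 and Gpr52, had an r of 0.80 to 0.93 in all of their 10 pairs. They were picked from these values, so this range is a description. Without the 2 arrays farthest from the median of the first gene the range was 0.74 to 0.94, and the lowest r within a group was 0.84 in CT, 0.78 in SR, 0.82 in SS and 0.83 over the 6 yoked arrays. The other genes were less close. Chrm4 passed in 5 of 9 pairs, with its highest r with Gpr6 (0.73), Eya1 in 7 of 9, Sp9 in 5 of 9 and Upb1 in 6 of 9. Over the 6 yoked arrays alone, the correlations of Eya1 with Adora2a and with Gpr6 were -0.03 and 0.06, against 0.56 and 0.63 over the other 18 arrays, while that with Sp9 was 0.82 against 0.48, and these differences were not tested.

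Isl1 stood outside this pattern. None of its 9 pairs passed, and its r ran from -0.28 with Ebf1 to 0.02 with Sp9. Isl1 and Chrm4, whose means in SR were the highest and the lowest of the 5 groups, had an r of -0.17 (rho = -0.36, permutation p = 0.589 for r and 0.143 for rho).

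**Figure D3:**
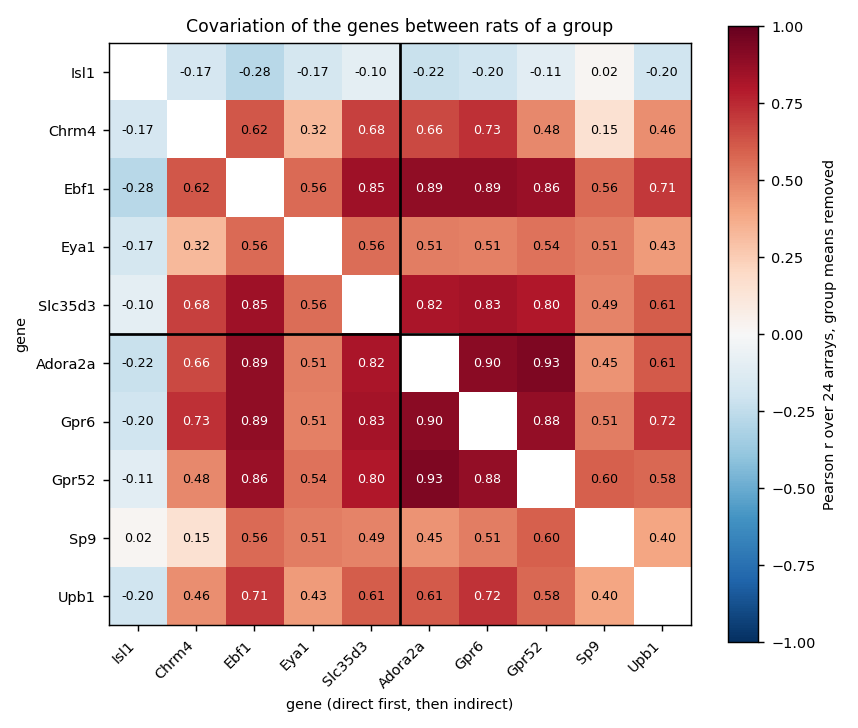
Pearson's r of each pair of the 10 genes over 24 arrays after group means were removed (colour and number), with direct pathway genes first and black lines between the pathways. Values in the block that joins the pathways reach 0.89, against 0.85 within the direct and 0.93 within the indirect pathway, and the row of Isl1 stays between -0.28 and 0.02.

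The mean of the 5 direct and that of the 5 indirect pathway genes correlated at r = 0.89 (rho = 0.91) between rats of a group. This and the following correlations are over the same 24 arrays with group means removed and are given as descriptions, since the points share array, dissection and normalization. The indirect pathway mean followed a list of 13 genes common to both kinds of medium spiny neuron at r = 0.98 and the direct pathway mean at 0.87. It followed the other direct pathway genes (Drd1, Tac1, Pdyn, Sfxn1, Zfp521) at 0.93 and the other indirect pathway genes (Drd2, Penk, Grik3, Plxdc1, Six3) at 0.95, while for the direct pathway mean these values were 0.80 and 0.88. Correlations this high were not rare. Of 3582 genes with a signal above bioB, 10.8% had an r over 0.8 with the indirect and 5.61% with the direct pathway mean. The genes most like the direct pathway mean were Mef2a (0.93), Ctxn1 (0.92) and St8sia3 (0.91), and those most like the indirect pathway mean were Cap1 (0.98), Ppp1r7 (0.98) and Ppp3ca (0.97).

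Markers of other cells moved with these means in the opposite direction. The list of 5 cholinergic interneuron genes had an r of -0.70 with the direct and -0.69 with the indirect pathway mean, the list of 4 astrocyte genes -0.56 and -0.50, and the list of 5 oligodendrocyte genes -0.47 and -0.40. The endothelial, cortical and microglial lists lay between -0.08 and 0.15. Isl1 had an r of 0.367 with the cholinergic list, against -0.69 to -0.48 for the other 9 genes. This was not particular to the cholinergic list. With the astrocyte list the r of Isl1 was 0.365, against -0.62 to -0.08 for the other 9 genes, and with the microglial list it was 0.31. The median signal of all clusters on an array had an r of -0.24 with the direct and -0.46 with the indirect pathway mean. The part of cell composition, dissection and array in the shared variation was not tested.

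**Figure D4:**
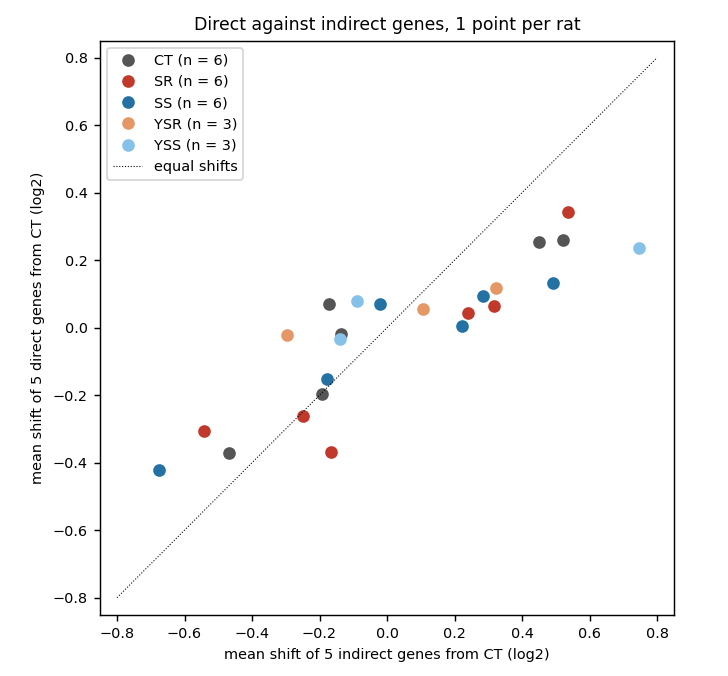
For each rat (points, coloured by group), the mean log2 shift from CT of the 5 indirect pathway genes (horizontal axis) and of the 5 direct pathway genes (vertical axis), with a dotted line for equal shifts. Rats of every group lie along 1 rising band, which is flatter than the line of equal shifts, and the point farthest to the right, at 0.75, is YSS replicate 1.

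The receptors that define the pathways also gave no difference between groups that passed the adjustment. Drd1 had a log2 signal of 12.14 ± 0.40 (SD) in CT, 12.26 ± 0.34 in SR and 12.06 ± 0.66 in SS, and Drd2 had 15.16 ± 0.51, 15.18 ± 0.56 and 15.29 ± 0.77 (n = 6 each). In YSR and YSS (n = 3 each) Drd1 had 12.06 ± 0.41 and 12.31 ± 0.55, and Drd2 15.25 ± 0.37 and 15.39 ± 0.57. The 95% intervals in SRvsCT were wide, from -0.42 to 0.65 for Drd1 and from -0.64 to 0.67 for Drd2. The lowest signal of Drd1 on any array was 10.85 and that of Drd2 13.91, both above the highest 95th percentile of the negative controls. Their lowest adjusted p in any comparison was 0.830. Of the 5 other direct pathway genes 1 had an unadjusted p under 0.05 in SRvsCT and SRvsSS and 1 in YSRvsCT, and of the 5 other indirect pathway genes 1 in SRvsCT, 1 in YSSvsCT and 1 in SSvsYSS, with 0 called after adjustment. Of all clusters, 18.7% passed that p in either direction in SRvsCT and 6.89% in SRvsSS. The shares were 4.88% in YSRvsCT, 4.57% in YSSvsCT and 5.43% in SSvsYSS. Sfxn1, a mitochondrial serine transporter, was higher in SR by 0.21 than in CT (adjusted p = 0.173) and by 0.22 than in SS (adjusted p = 0.693). The kainate receptor subunit Grik3 was higher by 0.30 in SRvsCT (adjusted p = 0.113). Zfp521, a zinc finger factor, had a difference of 0.28 in YSRvsCT (adjusted p = 0.972). Plxdc1, a plexin domain protein, had one of 0.39 in YSSvsCT, -0.49 in SSvsYSS and 0.61 between SRvsYSR and SSvsYSS, and its lowest adjusted p was 0.772. Among the genes of both kinds of neuron 1 of 13 had an unadjusted p under 0.05 in SRvsCT, where 18.7% of all clusters did. It was Gad1, which makes GABA (0.26, adjusted p = 0.143).

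No gene in the marker lists of other cells passed the adjustment in any comparison, and the following counts rest on unadjusted values. The oligodendrocyte genes had higher signals at an unadjusted p under 0.05 in SRvsCT for 4 of 5, among them the myelin genes Mag (0.65) and Mbp (0.36), and in SSvsCT for 3 of 5, among them Mog (0.45) and Mobp (0.32). Of all clusters, 5.72% were higher at that p in SRvsCT (12.9% with equal array medians) and 2.47% in SSvsCT. The mean shift of the list ran from -0.32 to 0.18 in CT, from -0.002 to 0.78 in SR, from 0.02 to 0.60 in SS, from -0.19 to 0.09 in YSR and from -0.42 to -0.05 in YSS. Of the 4 cortical genes 2 were lower at that p in SSvsCT, where 6.24% of all clusters were lower. They were Slc17a7 (-1.79, adjusted p = 0.558, limma) and Tbr1 (-0.82, adjusted p = 0.499). The mean shift of the 4 cortical genes ran from -0.91 to 1.10 in CT and from -1.35 to -0.45 in SS. It ran from -1.21 to 1.18 in SR, from -1.01 to 0.86 in YSR and from -0.82 to 0.999 in YSS, so low values were not confined to SS. The lowest adjusted p of the oligodendrocyte and cortical genes in SRvsCT and SSvsCT was 0.107, for Mag in SRvsCT. In SRvsYSR 3 of 5 oligodendrocyte genes were higher, among them Mag (0.58), and in SSvsYSS 4 of 5, among them Mog (0.75) and Mbp (0.51), against 1.98% and 2.44% of all clusters. The cholinergic factor Gbx2 had a difference of -0.33 in YSSvsCT, 0.34 in YSRvsYSS and 0.29 in SSvsYSS, the microglial receptor Csf1r one of 0.28 in YSRvsYSS and the pericyte gene Rgs5 one of 0.48 in SSvsYSS. Each of these had an unadjusted p under 0.05 and an adjusted p of 0.656 or more. The correlation of Chrm4 with the oligodendrocyte list was -0.45 and that of Eya1 -0.48. These values were not particular to Chrm4 and Eya1. Slc35d3 (-0.47), Adora2a (-0.46), Gpr6 (-0.40) and Gpr52 (-0.40) had similar ones, while those of Ebf1 (-0.25), Upb1 (-0.18), Sp9 (-0.14) and Isl1 (0.09) were weaker. Chrm4 had stronger correlations with the astrocyte (-0.565) and cholinergic (-0.52) lists, and Eya1 with the cholinergic list (-0.69). Eya1 also had an r of 0.47 with the cortical list. The part of these lists in the differences of Chrm4, Isl1 and Eya1 was not tested.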

How the data were processed

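RNA of individual rats was hybridised to 1 array each, so rats were the replicates. The p-values set group differences against the spread between arrays of a group, in which rat, dissection and array cannot be told apart. The values used were log2 signals that the authors deposited, 1 for each array and transcript cluster, and per the submitters' processing notes they came from Affymetrix Expression Console. No source used here gives its version, the normalization or the genome build. The authors also deposited a table of group means (log2), group SDs, p-values and signed fold changes (a score). From it only symbols and coordinates were used, and its group means served to check the scale.

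All 68842 clusters entered 1 limma fit of 5 groups and 24 arrays (lmFit and eBayes, limma 3.58.1, R 4.3.3, Python 3.11.15), with two-sided tests and Benjamini-Hochberg adjustment over all clusters. The step was tested on simulated data. Control rows (1738, of which 1153 were negative controls) were left out. A further test asked whether the difference of SR from YSR differed from that of SS from YSS. The median difference of all clusters was -0.07 in SRvsCT. The number of arrays limits the precision. No 2 arrays held identical values.

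The genes and lists were chosen with earlier results of these data known. All 10 genes are named, with Drd1 and Drd2, and from each other list up to 2 genes with the smallest p under 0.05 per comparison. Some genes of the lists are not reported here. The pair correlations, their permutation tests, the counts of differences below 0, the correlations with other lists and the search of promoters were added after the values were seen. Alternatives were a signal filter, 2 other normalizations, array weights, only the groups compared, another moderation, a replicate block, the mean of a gene's clusters, and leaving out each array.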

Additional observations from a re-analysis of the deposited data

Results flagged for a closer look

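Isl1 in SS replicate 4 had a log2 signal of 7.88, against 8.13 in the next lowest array of its group, a gap of 0.709 of the range of the 6 SS arrays. It was the only array set apart among 30 groups of 6 arrays tested over the 10 genes, and chance sets an array apart in about 1 in 20 such groups.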

How the results depend on the processing

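In the 8 pairwise comparisons the count of the 10 genes called at an adjusted p under 0.05 stayed at 0 under all 32 alternatives, except in SRvsCT, where leaving out 1 array gave counts from 0 to 1, with Chrm4 called without SR replicate 1 (adjusted p = 0.0475). The count also stayed at 0 under 31 alternatives of the F test and of the difference of differences. The mean shift of the direct pathway genes in YSR from CT was -0.0238 without CT replicate 4 and between -0.0238 and 0.102 when 1 array was left out, against 0.05 with all arrays, and other mean shifts moved by less than the spread between rats, although the indirect pathway shift of YSS turned from 0.17 to -0.11 without YSS replicate 1. Under the signal filter only Adora2a and Gpr52 could be tested. Of 87 differences with an unadjusted p of 0.05 or more, 56 changed sign under at least 1 alternative and 31 under none. The genes of the 10 below 0 numbered from 3 to 9 in SRvsCT, from 2 to 8 in SSvsCT, from 3 to 9 in SRvsSS and from 4 to 10 in SSvsYSS. The cause was not tested. Chrm4 had an unadjusted p under 0.05 in SRvsCT under 29 of 31 alternatives, Isl1 in SRvsSS under 23 of 31 and Eya1 in SRvsYSR under 28 of 31. With the replicate number as a block, 0 of the 10 genes were called in each comparison (lowest adjusted p 0.216 in SRvsCT). Arrays with the same number had a median correlation of -0.02 over 39 pairs, as did arrays with different numbers over 186 pairs. Most of these pairs joined groups that were not yoked to each other, so this cannot decide whether the numbers pair yoked rats. For 8 of the 10 genes no array rose above the 95th percentile of the negative controls, which limits what a missing difference shows.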
